A study of Mus musculus with 4 samples.

Results

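Dopamine synthesis, uptake and receptor genes were followed across the hypothalamus of C57BL/6J mice: Th, Ddc, Slc6a3, Drd1, Drd2, Drd3 and Drd5. These 7 genes were taken by symbol from the 33696 genes of the count tables, and each symbol matched a row there. The series holds 4 single-nucleus RNA libraries from wild-type mice, without further alleles, labelled SPF (specific-pathogen-free) in the sample titles. For 2 weeks the mice were infused intraperitoneally from osmotic minipumps, 2 libraries with 350 µg per day of imidazole propionate (ImP, a compound that gut bacteria make from histidine) and 2 with the vehicle alone, water holding 1% DMSO. Hypothalami were dissected after perfusion and frozen, and nuclei were isolated and sequenced as 10x 3′ libraries. The libraries are called vehicle 1, vehicle 2, ImP 3 and ImP 4, and values by library are given in that order. The sex and age of the mice are not used here, and nothing in the labels says how many animals a library holds, so the tests below measure the spread between libraries only.

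Dopamine is made from tyrosine in successive steps. Th encodes tyrosine hydroxylase, which makes L-DOPA and limits the rate, and Ddc encodes aromatic L-amino acid decarboxylase, which turns L-DOPA into dopamine and also serves serotonin and trace amine synthesis. Slc6a3 encodes the plasma membrane transporter that takes dopamine back up. Drd1 and Drd5 encode D1-like receptors, which raise cyclic AMP, and Drd2 and Drd3 encode D2-like receptors, which lower it. In the hypothalamus, dopamine neurons of the arcuate nucleus are known for holding back prolactin release from the pituitary through Drd2, and further Th cells lie in the zona incerta, the periventricular zone and the dorsomedial hypothalamus.

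The windows around the transcription starts of the enzyme genes are shown because, among the larger neuron clusters, Th and Ddc were highest in largely different ones. The sequences are RefSeq's, build GRCm38.p6, from 250 bases before to 30 bases after the start, read 5′ to 3′ on the strand of the gene. Capitals mark matches, on either strand, to the cyclic AMP response element TGACGTCA or to the Onecut-type sites ATCAAT and ATCGAT, none of which overlap. Onecut sites were searched since Onecut transcription factor genes led several of the clusters with much Ddc.
Th promoter: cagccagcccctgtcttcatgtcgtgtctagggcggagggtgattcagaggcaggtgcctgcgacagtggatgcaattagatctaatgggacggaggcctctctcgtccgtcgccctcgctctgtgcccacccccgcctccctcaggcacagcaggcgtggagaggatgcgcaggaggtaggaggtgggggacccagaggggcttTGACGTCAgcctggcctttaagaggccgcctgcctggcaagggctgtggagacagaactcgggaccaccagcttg
Ddc promoter at the upstream start: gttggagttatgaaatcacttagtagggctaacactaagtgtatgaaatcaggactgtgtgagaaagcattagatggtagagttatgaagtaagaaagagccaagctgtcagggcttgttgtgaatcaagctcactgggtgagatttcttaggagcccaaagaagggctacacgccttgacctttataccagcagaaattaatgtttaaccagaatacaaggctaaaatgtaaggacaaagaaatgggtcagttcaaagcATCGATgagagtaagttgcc
Ddc promoter at the downstream start: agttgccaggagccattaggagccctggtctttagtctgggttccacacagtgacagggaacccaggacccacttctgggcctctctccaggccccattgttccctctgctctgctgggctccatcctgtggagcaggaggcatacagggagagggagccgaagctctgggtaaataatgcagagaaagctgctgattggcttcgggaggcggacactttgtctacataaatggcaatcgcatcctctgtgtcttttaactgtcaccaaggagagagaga
The Th window lies at chr7:142899966-142900245 on the minus strand and held the cyclic AMP response element with its first base at position -45. Of 32851 RefSeq windows of this length, 1.74% held that element. Ddc has 2 starts in the table, both on the minus strand, at chr11:11898115-11898394 and chr11:11890379-11890658. The upstream window held ATCGAT from position 11, a sequence found in 0.843% of all windows, and the downstream window held none of the motifs. ATCAAT, present in 7.21% of all windows, was in none of the windows of the 7 genes. These matches describe letters and say nothing of binding in these nuclei.

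The files held 11255, 13723, 15471 and 16348 barcodes in vehicle 1, vehicle 2, ImP 3 and ImP 4, with 48060194 to 51945297 UMIs (counted molecules) per library. After filters and removal of called doublets, 47910 nuclei remained, and each pair of libraries shared 39 to 76 barcode sequences. Clusters were named from marker genes. In 56 clusters with 28519 nuclei the neuronal markers led (neuron-like), of which 31 clusters with 15392 nuclei expressed GABAergic and 23 with 12163 nuclei glutamatergic transmitter genes. Another 9 clusters of neurons with 4359 nuclei did not meet the rule for a name, and they made up 8.34% to 10.3% of the kept nuclei of a library. Median depth in neuron-like nuclei was 4558 and 3880 UMIs in the vehicle libraries and 3482 and 3487 in the ImP libraries, so shares of nuclei are also given at an equal depth of 2000 UMIs. ImP 4 stood apart in its pituitary-like nuclei, 446 of them against 2 to 5 in the other libraries. Its glia also clustered apart, with 1379 of the 1387 nuclei of an astrocyte-like cluster and 1396 of the 1407 of an oligodendrocyte-like cluster.

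Th was sparse. Neuron-like nuclei held 137, 110, 96 and 152 Th UMIs in vehicle 1, vehicle 2, ImP 3 and ImP 4, which as counts per 1000000 UMIs (CPM) came to 4.38, 3.50, 3.23 and 5.06. The ImP libraries gave both the lowest and the highest of these levels. A Th UMI was found in 405 of 28519 neuron-like nuclei, a share of 1.42% (95% exact binomial interval 1.29 to 1.56), and no nucleus held more than 5. Such intervals cover counting error only. In astrocyte-like nuclei, which do not make Th, the share was 0.0970% at a median depth of 1349 UMIs. With every nucleus reduced to 1000 UMIs it was 0.405% in neuron-like and 0.100% in astrocyte-like nuclei. Th was thus above the background of free RNA in neurons as a class, and at that depth the share was 0.571% among GABAergic and 0.213% among glutamatergic neuron-like nuclei. At 1000 UMIs the neuron-like and astrocyte-like shares were 0.790% and 0.221% for Drd2, 0.412% and 0.163% for Drd1, and 0.498% and 0.0458% for Drd3. They were 0.0767% and 0.0443% for Slc6a3 and 0.0597% and 0.0203% for Drd5.

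**Figure D1:**
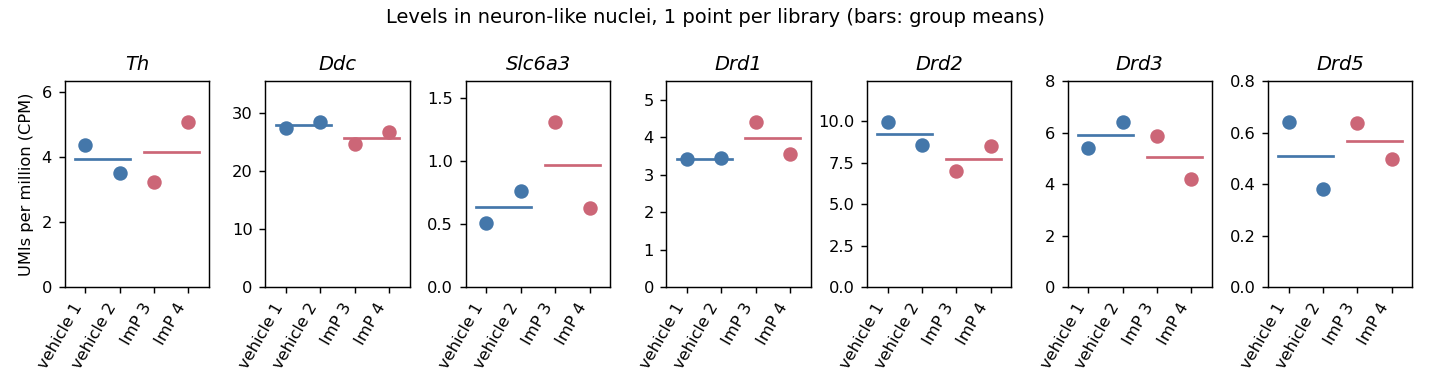
Level of each gene in neuron-like nuclei in CPM (y axes, each from 0 and on its own scale) in the 4 libraries (x axes), with vehicle in blue, ImP in red and group means as lines. The groups overlap for Th, Slc6a3, Drd3 and Drd5 and do not overlap for Ddc, Drd1 and Drd2.

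Clusters were formed from all genes, the 7 included, so levels across clusters are given as a description without a test. The level of a cluster is the mean over libraries with at least 20 of its nuclei, and 52 neuron-like clusters of at least 50 nuclei were ranked. Th was highest in cluster 19, 578 GABAergic nuclei led by Dlx6os1 and Gal (the neuropeptide galanin), with 37.4, 33.1, 34.1 and 28.4 CPM by library (33.3 ± 3.71, SD, n = 4). That cluster was steady across libraries. Next came cluster 49, 238 GABAergic nuclei led by Mbnl3, Ghrh and Lepr, where Th was at 19.5, 21.2, 0 and 66.4 CPM. Its mean of 26.8 rested mostly on ImP 4, which held 21 of the cluster's 32 Th UMIs. Cluster 51, 222 GABAergic nuclei with Slc6a3 and the prolactin receptor gene Prlr among the leading genes, followed at 46.7, 12.2, 16.3 and 27.0 CPM. The order of clusters 19, 49 and 51 lies within the spread over libraries. Cluster 22, 510 glutamatergic nuclei led by Avp (vasopressin) and Sim1, had 20.4 ± 7.71 CPM, and the median of the 52 clusters was 1.91. Th-rich clusters, taken as those with at least 30% of nuclei holding Th and at least 5 times the neuron-like level, came down to cluster 64. It had 22 nuclei, 31.8% with Th (interval 13.9 to 54.9), and with 4 to 9 nuclei per library it was not tested.

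Cluster 64, picked by the rule on its Th, held several members at high levels. With 22 nuclei these levels rest on few UMIs, and the high Th follows from the rule. Its pooled levels were 86.9 CPM for Th, 190 for Ddc, 126 for Drd2, 47.4 for Drd1 and 205 for Slc18a2, the vesicular monoamine transporter that loads dopamine into vesicles, and its leading genes included Onecut3, Met and Ptprq. Slc6a3 was seen in 2 of its nuclei. Drd3 and Drd5 had no UMI there, which allows a share of nuclei with a UMI of up to 13.6%.

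Ddc was found in more nuclei. Neuron-like nuclei had 27.5, 28.4, 24.6 and 26.7 CPM by library, and both ImP libraries lay below both vehicle libraries. A Ddc UMI was in 8.40% of neuron-like nuclei, 2395 in all, spread over 55 clusters, against 405 nuclei with Th in 48. The highest level was in cluster 33, 425 GABAergic nuclei led by Pmfbp1, 1700042O10Rik and Onecut1, at 154, 157, 158 and 153 CPM (156 ± 2.65, SD, n = 4). Its level was nearly the same in every library, and 44.7% of its nuclei held Ddc. Cluster 27, 485 glutamatergic nuclei with the transcription factor genes Lmx1a and Lmx1b among the leading genes, had 123, 156, 101 and 142 CPM. Cluster 51, named above for Th, had 136, 85.6, 163 and 84.9 CPM, and clusters 43 and 15 followed with 96.2 ± 44.5 and 83.4 ± 11.4. Cluster 15 was again led by Onecut1 and Pmfbp1. The median of the 52 clusters was 19.0 CPM.

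Among the 52 ranked clusters, both enzyme genes were thus highest in mostly different ones. Cluster 64, with 22 nuclei too small to be ranked, had high levels of both, its Th by the rule that picked it. Cluster 33 had 5.05 ± 3.21 CPM of Th beside its Ddc, cluster 27 had 1.84 ± 2.73, and cluster 43 had 2.38 ± 3.10. In the opposite direction, the vasopressin-led cluster 22 had Th but only 3.94 ± 3.07 CPM of Ddc, rank 44 of 52 in Ddc. Cluster 51 was the only one of the 52 in the upper 3 for both genes.

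**Figure D2:**
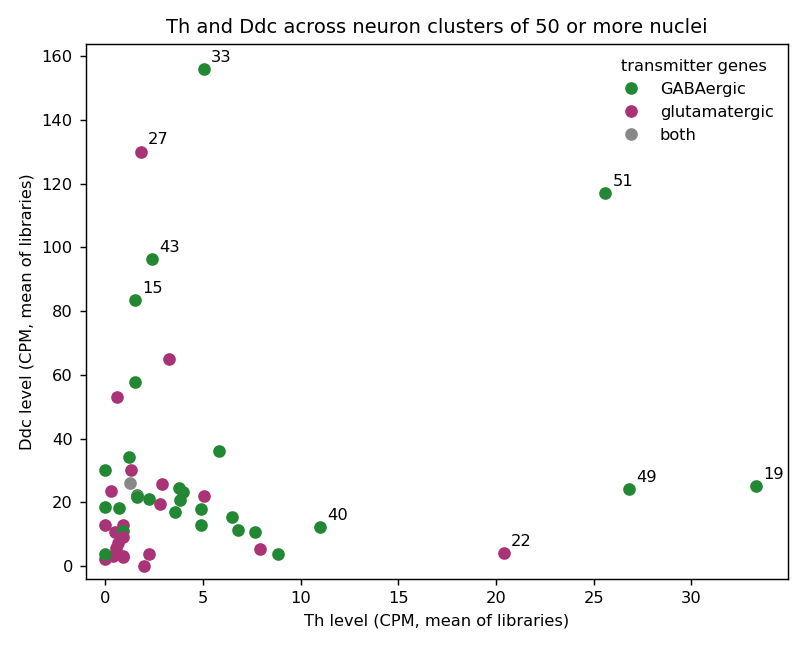
Th level (x axis) against Ddc level (y axis), both in CPM as means over libraries, for the 52 neuron-like clusters of at least 50 nuclei, coloured by transmitter genes and with some cluster numbers. Clusters 33 and 27 lie high in Ddc at less Th than clusters 22, 49 and 19, which lie far right at low Ddc, and cluster 51 is far from both axes.

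Nuclei with Th also held Ddc more often than the rest. Among the 405 neuron-like nuclei with Th, 87 had a Ddc UMI, 34, 20, 16 and 17 of them in vehicle 1, vehicle 2, ImP 3 and ImP 4. Nuclei with Th were deeper than the rest (median 4451 UMIs against 3768), so both kinds were set to 2000 UMIs. Ddc was then in 11.8% of nuclei with Th and 4.57% of nuclei without, with 15.7, 9.71, 9.78 and 11.5% against 4.66, 4.83, 4.21 and 4.58% in vehicle 1, vehicle 2, ImP 3 and ImP 4. Each library showed the higher share beside Th. Slc18a2 was in 10.9% against 4.65%, Gal in 30.3% against 13.1%, and Gad2, which makes GABA, in 33.6% against 23.3%, while the glutamate transporter gene Slc17a6 was in 10.3% against 16.5%. At full depth most nuclei with Th had no UMI of Ddc or of Slc6a3. Of the 405, 318 had no Ddc UMI, 11 had Slc6a3, and 10 had Th, Ddc and Slc6a3 together. Sampling of few UMIs per nucleus lowers each of these shares. Of the 87 nuclei with Th and Ddc, 74 were GABAergic. They lay in 26 clusters, with the highest counts in cluster 3 (18 of its 1238 nuclei, led by Meis2) and cluster 51 (12 of 222). The small cluster 64 held 6 among its 22 nuclei. By contrast, the 318 with Th but no Ddc were most numerous in clusters 19 (53 of 578 nuclei) and 22 (37 of 510).

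Slc6a3, the transporter, was seen in few nuclei. Neuron-like nuclei had 0.512, 0.764, 1.31 and 0.633 CPM by library, from 84 nuclei with a UMI. ImP 3 was the high library. Cluster 51 held 24 of the 84 nuclei and had 34.0, 42.8, 48.9 and 23.2 CPM (37.2 ± 11.2, SD, n = 4), while the next clusters had 5.23 (cluster 27) and 5.05 CPM (cluster 40). Cluster 40, GABAergic nuclei led by the choline transporter gene Slc5a7 and Lhx8, owed its level to ImP 3 alone, with 11 UMIs in 6 nuclei there and 0 in the other libraries. Of these 6 nuclei, 5 had Th, 4 had Ddc and 5 had at least 2 genes of a list of midbrain dopamine cell genes (Slc18a2 in 5, En1 in 4 and Aldh1a1 in 4). In the other 330 nuclei of cluster 40, 0.606% held 2 such genes, and none of the 24 Slc6a3 nuclei of cluster 51 did. The 14 Slc6a3 nuclei of cluster 27 had Ddc in 10, Slc18a2 in 10, Lmx1b in 7 and Th in 0. At least 2 genes of the list, which includes Lmx1b, were in 6 of these 14 nuclei (42.9%). They were also in 8.70% of the nuclei of cluster 27 without Slc6a3. Of all 28519 neuron-like nuclei, 11 had Th and Slc6a3, 5 each in clusters 40 and 51.

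**Figure D3:**
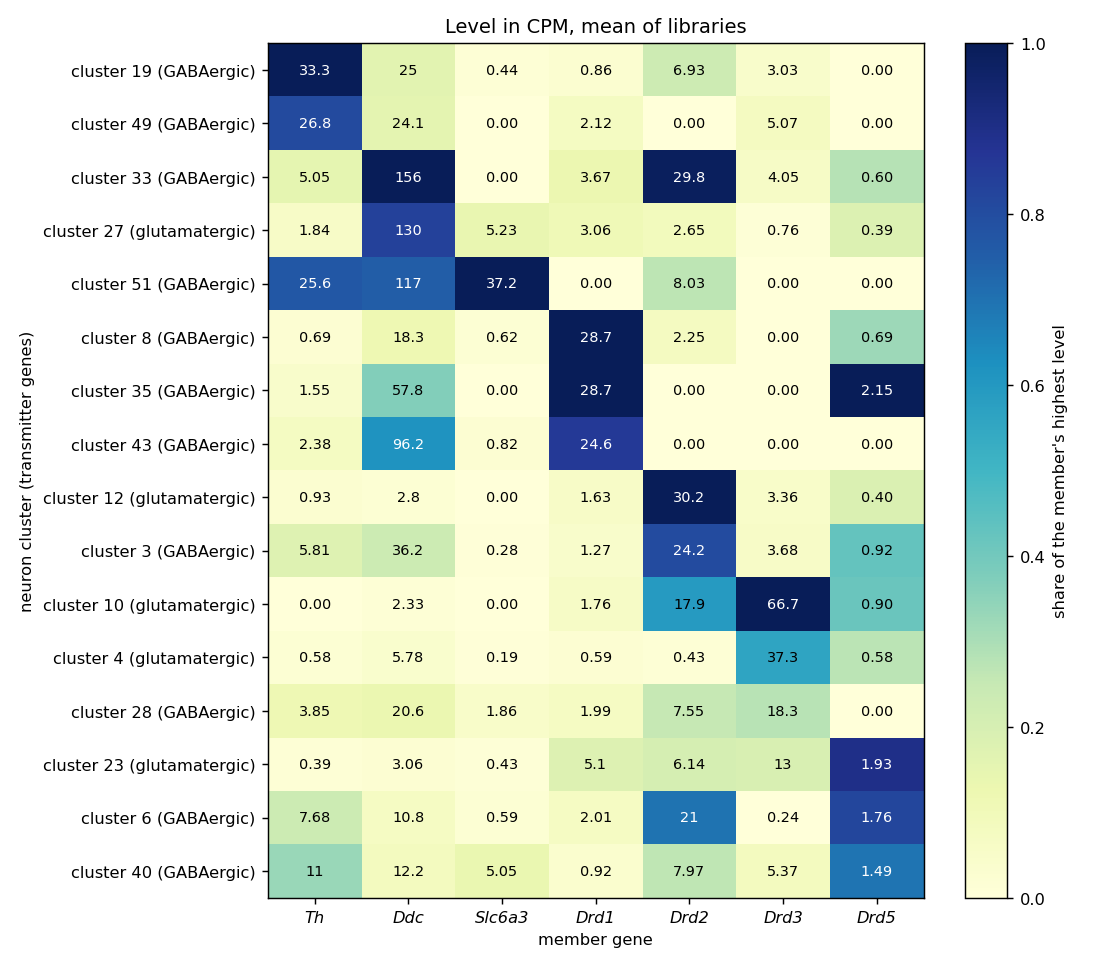
Mean level in CPM (numbers) of the 7 genes (columns) in the neuron-like clusters (rows, with their transmitter genes) that are among the highest 3 for any gene, coloured by the share of that gene's highest level. Cluster 51 shares high Th, Ddc and Slc6a3, the Drd1 clusters 8, 35 and 43 have little Drd2, and cluster 10 has both Drd3 and Drd2.

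Of the D1-like receptor genes, Drd1 was at 3.42, 3.44, 4.40 and 3.56 CPM by library in neuron-like nuclei. The vehicle libraries were nearly equal and lower than either ImP library. Drd1 was highest in cluster 8, 918 GABAergic nuclei with Vipr2, Rgs16 and Vip among the leading genes, genes known from the suprachiasmatic nucleus (the circadian clock). The level there was 29.1, 23.8, 30.8 and 31.0 CPM, 7.73% of nuclei with a UMI. Cluster 35, GABAergic and led by Gm29478 and Zic4, had 28.7 ± 11.6 CPM and cluster 43, led by Lef1 and Rarb, 24.6 ± 9.14. These 3 overlap in their spread, and the next cluster had 8.55 CPM. Clusters 35 and 43 had no Drd2 UMI, which allows a share of nuclei with a UMI of up to 0.785% and 0.915%, and cluster 8 had 2.25 ± 1.83 CPM of Drd2. Clusters 43 and 35 also had Ddc (96.2 and 57.8 CPM). Drd5 had 66 UMIs in all neuron-like nuclei, at 0.640, 0.382, 0.639 and 0.499 CPM by library, and no named cluster exceeded 2.15 CPM, a level that rested on 3 UMIs (cluster 35). The unnamed cluster 48, led by Trh, had 7 Drd5 UMIs among 246 nuclei (3, 1, 3 and 0 by library), and the unnamed cluster 2, led by Ebf1, had 14 among 1411 (3, 5, 3 and 3). No order of clusters can be read for Drd5 at this depth.

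Drd2, the main D2-like receptor and an autoreceptor of dopamine cells, was at 9.94, 8.56, 6.99 and 8.52 CPM by library in neuron-like nuclei. ImP 3 was the low library, and vehicle 2 and ImP 4 were nearly level. Its leading clusters were cluster 12, glutamatergic and led by Ebf3 and Dkk2 (34.9, 41.6, 22.4 and 21.7 CPM by library), the Ddc-rich cluster 33 (36.9, 28.8, 31.2 and 22.1 CPM) and cluster 3 (28.3, 25.9, 15.9 and 26.8 CPM). The 3 did not differ beyond their spread. The levels of cluster 12 were lower in both ImP libraries, a difference seen after the clusters were ranked and not tested. Drd3, a D2-like receptor of high dopamine affinity, was at 5.40, 6.40, 5.88 and 4.20 CPM. It was the receptor gene most concentrated in its clusters: cluster 10, 837 glutamatergic nuclei led by Myo5b, had 62.1, 88.4, 62.1 and 54.2 CPM (66.7 ± 14.9, SD, n = 4) and cluster 4, 1069 glutamatergic nuclei also led by Myo5b, had 37.7, 37.7, 45.1 and 28.6 CPM (37.3 ± 6.74), against a median of 0.888 over the 52 clusters. Each library had more Drd3 in cluster 10 than in cluster 4. Cluster 10 had Drd2 at 17.9 ± 7.75 CPM and cluster 4 at 0.430 ± 0.499. Of the 671 Drd3 UMIs of neuron-like nuclei, cluster 10 held 226 and cluster 4 held 160.

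Outside neurons, Ddc and Drd2 were found in different classes. A Ddc UMI was in 12 of 76 endothelial-like nuclei, 15.8% (interval 8.43 to 26.0), with 5, 4, 2 and 2 UMIs from vehicle 1 to ImP 4, and in 3.82% (3.30 to 4.38) of 5005 oligodendrocyte-like nuclei. At 1000 UMIs per nucleus these shares were 8.82% and 2.96%, against 0.563% in astrocyte-like, 0.322% in oligodendrocyte precursor-like and 2.44% in neuron-like nuclei. Only 41 of the 76 endothelial-like nuclei reached that depth. The oligodendrocyte-like level was 35.2, 23.1, 25.9 and 37.5 CPM by library, and an unnamed cluster led by Cnksr3 with Enpp6 and Bcas1, genes of newly formed oligodendrocytes, had Ddc in 13.7% of 153 nuclei. Th had no UMI in endothelial-like nuclei, which allows a share of nuclei with a UMI of up to 3.95% at their median depth of 1053 UMIs. Drd2 was in 24.7% (18.2 to 32.2) of 158 pituitary-like nuclei led by Prl (prolactin) and in 4.05% (1.87 to 7.56) of 222 led by Gh (growth hormone), nearly all from ImP 4. An unnamed cluster led by Pomc and Tbx19, 77 of its 84 nuclei from ImP 4, had Drd2 in 14.3% of nuclei, and its 14 Th UMIs came from 2 nuclei. These nuclei enter the comparison over all kept nuclei below, which is therefore also given without them.

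**Figure D4:**
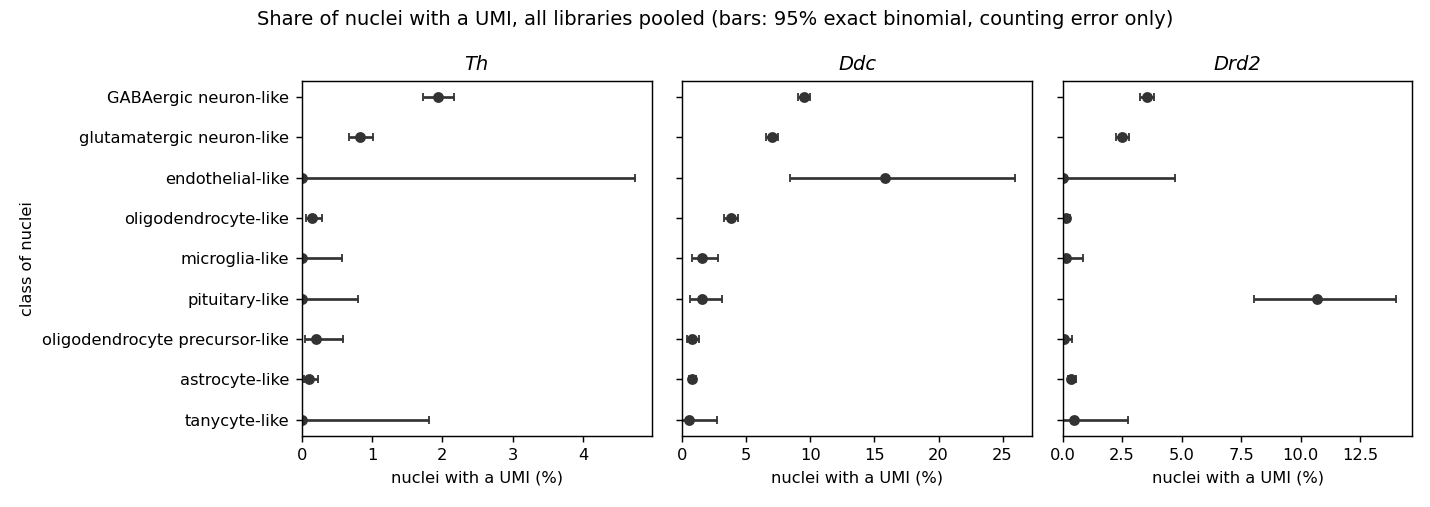
Share of nuclei with a UMI (x axes, percent, libraries pooled) of Th, Ddc and Drd2 in classes of nuclei (y axis), with 95% exact binomial intervals that cover counting error only. Th is highest in GABAergic neuron-like nuclei, Ddc has its highest share, with a wide interval, in the 76 endothelial-like nuclei, and Drd2 in the pituitary-like nuclei.

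Genes whose level followed a member most closely across the 52 clusters were listed by Pearson's r of log2(CPM + 1) among 14041 other genes, as a description over clusters that share their libraries. For Ddc this was 1700042O10Rik (r = 0.91), which the GENCODE annotation in hand places inside Ddc on the opposite strand. Whether counting kept the strands apart is not given in the sources used here, and whether reads of one gene entered the count of the other was not tested. The next genes for Ddc were Snx7 (0.64), Gm44643 (0.59), Gm44644 and Cpne2 (0.57 each). For Th they were Gm29374 (0.60), Ecel1 (0.59), Phc2 and Dlx1as (0.58 each) and Ncoa1 (0.54), for Drd1 Gm48550 (0.70), Eno4 (0.58), Gm5089 (0.56), Adipor2 (0.55) and Prex1 (0.54), for Drd2 Dennd6b (0.62), Polb (0.57), Timm9 (0.56), Adcy1 and Mme (0.55 each), and for Drd3 Rasal2 (0.60), Mypn (0.56), Gm3164, Frmd5 and Nectin1 (0.55 each). The values for Slc6a3 (6530403H02Rik, 0.58) and Drd5 (Gm19265, 0.57) rest on clusters of which 23 each were at 0.

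The comparison the design implies asked whether 2 weeks of ImP changed these genes. None of the 7 passed the test in any of 4 populations of nuclei (edgeR's quasi-likelihood test on UMIs summed per library, Benjamini-Hochberg adjusted p under 0.05 over all genes, 2 against 2 libraries). Of all genes tested, 0% passed in all kept nuclei, 0.00508% in neuron-like, 0.0167% in GABAergic and 0.0113% in glutamatergic neuron-like nuclei. The genes that passed were Mgp, Pmch and Hcrt, named after their values were seen. In all kept nuclei, where edgeR called 0, 1847 genes had an unadjusted p under 0.05 and DESeq2 called 379. These fits and the values below take no account of the prefix of the library names. Vehicle 1 has the same prefix as ImP 3, and vehicle 2 the same as ImP 4. With the prefix as a block, far more genes passed edgeR's test in each population, and no member did. In neuron-like nuclei the log2 fold change of ImP over vehicle was 0.09 ± 0.25 (SE) for Th (adjusted p = 0.970, edgeR), with a 95% interval of -0.48 to 0.67. For Ddc it was -0.11 (interval -0.31 to 0.10), adjusted p = 0.871 by edgeR. The interval for Ddc is the narrowest of the 7. Slc6a3 had 0.62 (interval -0.40 to 1.64), which was 0.02 without ImP 3 and 1.04 without ImP 4, and Drd5 0.17 (interval -0.75 to 1.10). Drd1 had 0.23 (interval -0.19 to 0.66), Drd2 -0.23 (-0.58 to 0.11) and Drd3 -0.21 (-0.68 to 0.26), with adjusted p = 0.869, 0.820 and 0.890 by edgeR. A level summed over nuclei cannot tell more nuclei with a gene from more RNA per nucleus.

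Groups did not overlap in CPM for 3 of the 7 in neuron-like nuclei, Ddc and Drd2 lower and Drd1 higher in ImP, against 38.1% of all genes tested there. In all kept nuclei Ddc was the only member without overlap, against 41.0% of all genes. In GABAergic neuron-like nuclei 5 of the 6 members tested did not overlap (Ddc, Drd2 and Drd3 lower, Slc6a3 and Drd1 higher), against 38.3% of all genes, and in glutamatergic ones Drd2 alone of the 5 tested, against 36.2%. Some gaps in GABAergic nuclei were narrow. Drd1 was at 4.20 CPM in vehicle 1 and 4.25 in ImP 4, and Drd2 at 9.86 in vehicle 2 and 9.63 in ImP 4. Slc6a3 had 12 UMIs in vehicle 2 and 13 in ImP 4. Slc6a3 and Drd3 had their largest fold changes in GABAergic neuron-like nuclei, at 1.01 ± 0.49 (SE) for Slc6a3, adjusted p = 0.673, and -0.57 ± 0.27 for Drd3, adjusted p = 0.661, both by edgeR. Drd3 UMIs there were few, at 2.66, 2.86, 2.03 and 1.63 CPM by library, while in glutamatergic nuclei, which hold the Drd3-rich clusters, the change was -0.12 ± 0.19. The Slc6a3 value of 1.01 was 0.60 without cluster 40, which holds the 6 nuclei of ImP 3 described above, and in neuron-like nuclei 0.62 became 0.31. Drd2 in all kept nuclei was -0.10, then -0.22 without the pituitary-like nuclei and -0.26 without the Pomc-led cluster as well.

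**Figure D5:**
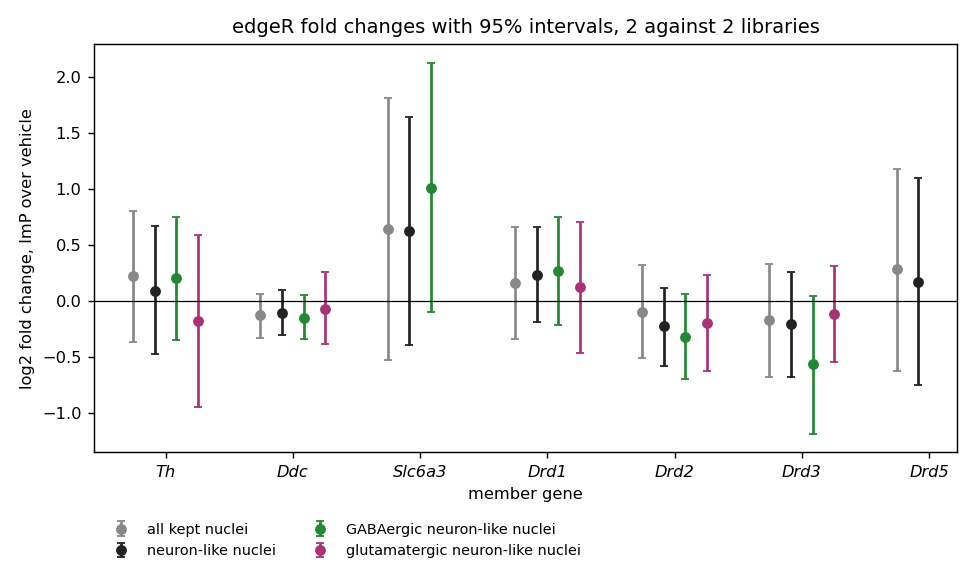
Log2 fold change of ImP over vehicle (y axis) by edgeR with 95% intervals for each gene (x axis) in 4 populations of nuclei (colours), from 2 against 2 libraries. Every interval crosses 0, narrowest for Ddc and widest for Slc6a3 and Drd5. Drd5 was too low to be tested in GABAergic and glutamatergic nuclei, as was Slc6a3 in glutamatergic nuclei.

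The share of neuron-like nuclei with a UMI was compared at 2000 UMIs per nucleus. Th was in 0.834, 0.626, 0.601 and 0.921% of nuclei in vehicle 1, vehicle 2, ImP 3 and ImP 4, and Ddc in 4.76, 4.86, 4.24 and 4.65%. Drd1 was in 0.670, 0.712, 0.911 and 0.722%, Drd2 in 1.83, 1.54, 1.34 and 1.60%, and Drd3 in 0.929, 1.15, 1.07 and 0.722%. Slc6a3 was in 0.0815 to 0.209% and Drd5 in 0.0715 to 0.151%. Nuclei with Th and Ddc made up 0.131, 0.0608, 0.0588 and 0.105%. Ddc was lower and Drd1 higher in both ImP libraries, each with p = 0.333 in a two-sided exact permutation test, the smallest p that 2 against 2 libraries can give (adjusted p = 0.933 over the 7 genes). The other genes had exact p-values of 0.667 or 1.00. Without reduction to equal depth the ImP libraries, which are shallower, both had lower shares of Ddc (7.24 and 7.67% against 9.96 and 9.10%). Unthinned Th shares overlapped, at 1.78 and 1.36% in the vehicle and 1.04 and 1.56% in the ImP libraries.

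The other genes of the pathway also gave no call. Of the list for tetrahydrobiopterin, the cofactor of Th, all 7 genes were tested in neuron-like nuclei and 0 rose or fell, with a median log2 fold change of 0.03 beside -0.01 over all genes. Qdpr, which regenerates the cofactor, had 0.46 ± 0.12, adjusted p = 0.320 by edgeR. Pts, Pcbd1 and Pcbd2 had -0.13, 0.16 and 0.00. Of the storage and uptake genes 4 of 5 were tested and 0 passed, with a median of -0.13, Slc18a2 at -0.09 and Slc18a1 at -0.29. Of the breakdown genes 5 of 7 were tested and 0 passed, with Maoa at -0.02 and Maob at 0.28. Of 7 genes of prolactin feedback 0 passed, with Prlr at 0.15 and Stat5b at -0.03, and of 17 genes of dopamine receptor signalling 16 were tested and 0 passed, among them Gnal at 0.05 and Pde10a at 0.17. Lists for transcription factors of forebrain dopamine cells (16 genes), midbrain dopamine cells (6 of 9 tested), striatal projection cells (9 of 10 tested) and fast transmitters (5 of 6 tested) had 0 calls, with medians of -0.04, 0.23, 0.07 and 0.04. Markers of noradrenaline and serotonin cells, which also use Th or Ddc, were too low to test. Dbh was at 0 to 0.127 CPM. The serotonin list summed to 0.133 to 0.541 CPM.

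Peptides known from arcuate Th cells were the list with the highest median, 0.62 over all neuron-like nuclei, not over Th nuclei alone. This list, like the others, was chosen with earlier results of these data known, so its rank and counts are a description only. The median was 0.75 in all kept, 0.66 in GABAergic and 0.61 in glutamatergic neuron-like nuclei, so it was not particular to 1 population. In neuron-like nuclei Kiss1 had no UMI, and all 10 others had a log2 fold change above 0. Of these, 8 did not overlap between groups, against 38.1% of all genes, 8 had an unadjusted p under 0.05, as did 1462 of all 19682 genes, and 0 passed after adjustment over all genes. Gal had 1564, 1871, 2369 and 3515 UMIs in vehicle 1, vehicle 2, ImP 3 and ImP 4 (0.86 ± 0.18, adjusted p = 0.259 by edgeR). Tac1 had 60.9, 69.7, 84.6 and 95.8 CPM (0.48 ± 0.10, adjusted p = 0.259 by edgeR). Agrp was nearly level and overlapped between groups, at 64.3, 65.8, 64.2 and 70.6 CPM (0.07 ± 0.08, adjusted p = 0.912 by edgeR). Pomc had 30.8, 28.8, 36.7 and 188 CPM, with ImP 4, the library that holds the pituitary-like and Pomc-led nuclei, far above the others. Transmitter genes of the other class were also at higher levels in both ImP libraries, without a call. Slc17a6 in GABAergic nuclei was at 20.1, 20.9, 31.4 and 31.4 CPM (0.64 ± 0.09, adjusted p = 0.124 by edgeR), and Gad1 in glutamatergic nuclei had 141, 159, 223 and 220 UMIs (0.65 ± 0.13, adjusted p = 0.146 by edgeR). What part any of this has in the peptide levels was not tested.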

How the data were processed

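The deposited files hold, for each of 4 libraries, UMI counts per gene and barcode as the authors' Cell Ranger 8.0.1 wrote them, per the file headers. The submitters' processing notes name GRCm39 and Seurat 5.0.0. Whether counting used strand is not given in the sources used here. Nuclei with at least 500 genes and at most 5% mitochondrial UMIs were kept, and the highest doublet scores were removed at 0.8% per 1000 barcodes (1013 to 2138 barcodes per library). Clustering used scanpy 1.11.5 and leidenalg 0.10.2 (3000 variable genes, 40 components, resolution 1), and clusters were named from marker lists. Levels are counts per 1000000 UMIs of the nuclei summed (CPM).

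ImP was compared with vehicle on counts summed per library by edgeR 4.0.16 in R 4.3.3 (quasi-likelihood test, TMM, genes filtered at a minimum count of 10, Benjamini-Hochberg adjustment over all genes tested). DESeq2 1.42.0 was an alternative. Tests were checked on simulated data. Shares of nuclei are the expected values after reduction of each nucleus to 2000 UMIs, leaving out shallower nuclei: 5646, 6371, 6532 and 6655 neuron-like nuclei entered in vehicle 1, vehicle 2, ImP 3 and ImP 4. They were compared by two-sided exact permutation tests. Exact binomial (Clopper-Pearson) intervals have 95% confidence, and a count of 0 was read as up to 3 counts. Named are the 7 members, the 3 neuron clusters highest in each, the 5 genes most like each member across clusters, up to 4 genes of each of 13 lists with the highest mean CPM in neuron-like nuclei, and genes past the threshold. The test planned for clusters rich in Th was not run because the only such cluster had fewer than 20 nuclei per library. The members and lists were chosen with earlier results of these data known. Alternatives were another normalization, filters on genes and nuclei, doublet removal, another clustering seed, other depths for the shares and leaving out each library. Some items are not reported here.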

Additional observations from a re-analysis of the deposited data

How the results depend on the processing

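Of 313 alternative values of the members' log2 fold changes, 292 kept their direction, 21 reversed and 0 passed the threshold (adjusted p 0.215 to 1.00 by edgeR or DESeq2, not given for 13). Of the reversals, 19 came from leaving out 1 library, where the lone sample of its group is assumed to vary like the others, and their cause was not tested. The range without 1 library was -0.28 to 0.40 for Th, -0.46 to 0.00 for Drd3, 0.02 to 1.04 for Slc6a3 and -0.13 to 0.57 for Drd5 in neuron-like nuclei. In all kept nuclei it was -0.13 to 0.51 for Th, -0.07 to 1.13 for Slc6a3, -0.08 to 0.38 for Drd1, -0.31 to 0.10 for Drd2, -0.44 to 0.06 for Drd3 and -0.06 to 0.59 for Drd5. It was -0.11 to 0.45 for Th in GABAergic nuclei, and -0.67 to 0.20 for Th, -0.25 to 0.09 for Ddc, -0.06 to 0.26 for Drd1 and -0.35 to 0.07 for Drd3 in glutamatergic ones. Single reversed values were -0.28 and -0.04 (Th, neuron-like, without ImP 4 and vehicle 2), -0.00 (Th, GABAergic, without vehicle 2), 0.03 (Drd2, all kept, without vehicle 1), and 0.07 (Ddc) and 0.04 (Drd3) in glutamatergic nuclei without vehicle 2. Th in glutamatergic nuclei also went from -0.18 to 0.04 with no doublets removed and to 0.06 with the unnamed clusters of neurons put back, an alternative chosen after seeing the data, as were those without the Slc5a7 and Lhx8 cluster and without the Pomc cluster.

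Counts of all genes past the threshold moved far more. In all kept, neuron-like, GABAergic and glutamatergic nuclei, edgeR called 0, 1, 3 and 2 genes and DESeq2 379, 243, 156 and 118. With every gene with a UMI the counts were 1, 0, 0 and 1. They were 1 in all kept nuclei with no doublets removed and with at least 1000 genes per nucleus, 0 in neuron-like nuclei without the Slc5a7 and Lhx8 cluster, and in glutamatergic nuclei 0 with another seed and 1 with the unnamed clusters put back. Without 1 library they ranged from 0 to 890, 0 to 1044, 0 to 350 and 0 to 745. The highest counts came without ImP 3 (890, 1044 and 745) and, in GABAergic nuclei, without vehicle 2. The groups share no replicate numbers. With the prefix of the library names as a block, whose meaning the labels do not give, the counts were 1101, 1008, 830 and 461, and no member passed.

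The log2 ratios of shares reversed for Th at 1000 UMIs (-0.03) and without thinning (-0.27), for Drd1 without thinning (-0.01) and at 2 or more UMIs (-1.07), for Drd5 at 1000 UMIs (0.13), and for Th with Ddc at 1000 UMIs (0.00) and at 2 or more UMIs (0.47). Without 1 library they ranged from -0.28 to 0.34 for Th, -0.53 to 0.04 for Drd3, -0.78 to 0.31 for Drd5 and -0.71 to 0.43 for Th with Ddc. With 66 Drd5 and 98 Slc6a3 UMIs in neuron-like nuclei, depth limits both genes, and Drd5 gave no value at 2 or more UMIs.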
